A study of Homo sapiens with 24 samples.

Results

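Of the m6A peaks called in human islet-like organoids (hILOs), 6492 were found in no earlier stage of the same pancreatic differentiation, and these organoid-only peaks are described here. A peak was counted as organoid-only when it had at least 50 input reads and shared no base, on the same strand and from its start to its end, with any peak of human pluripotent stem cells (hPSC), definitive endoderm (DE) or pancreatic progenitors (PP). They made up 22.4% of the 29040 hILO peaks that had the required input reads, called well-covered below, out of 31519 hILO peaks and 228472 peaks in all 6 deposited lists. They lay on 4563 of the 12711 genes with a well-covered hILO peak (35.9%), and 1152 of these genes (9.06%) had no peak in hPSC, DE and PP. The same rule applied to each other stage gave 3778 peaks found only in hPSC, 2885 only in DE and 2920 only in PP. The peaks were chosen by overlap and by their number of input reads, so counts that follow from the choice are descriptions and carry no test.

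m6A-seq was performed on 24 libraries of the human embryonic stem cell line MEL1 INS GFP/W, in 12 groups of 2, each of the 6 cell populations having an immunoprecipitated (IP) and an input group. Peaks are stretches of RNA with more IP than input reads. hPSC were the undifferentiated cells, DE followed activin A and CHIR99021, PP followed KGF, retinoic acid, LDN-193189, GDC-0449 and EGF, and hILOs were aggregates of PP kept in medium with zinc sulfate, heparin, 616452, T3, compound E and LDN-193189. These 4 populations formed batch 1, in which mRNA was precipitated with a SYSY antibody. Wild-type progenitors (WT PP) and progenitors that lacked the m6A demethylase ALKBH5 (A5-KO PP) formed batch 2, in which total RNA and a Millipore antibody were used and rRNA was removed from the input. According to the study, it is a reporter line with GFP under the endogenous insulin promoter, and the labels name it MEL1. The study calls both libraries of a stage biological replicates, and 1 list per population was called on its libraries together. No value per library was therefore available, and no comparison below has a replicate check or a test.

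N6-methyladenosine is the most common internal modification of mRNA. It is written by the METTL3 and METTL14 complex at DRACH motifs, where D stands for any base but C, R for a purine and H for any base but G, often as GGAC, and it is known to be dense near stop codons and in long internal exons. ALKBH5 and FTO remove it, and readers such as the YTHDF and IGF2BP proteins bind it and act on splicing, translation and decay. Islet cells release hormones from dense-core granules. Insulin is made by beta cells, glucagon by alpha cells and somatostatin by delta cells, and their fate is set by transcription factors such as NEUROD1, PAX6, PAX4 and ISL1.

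The hILO list was the best covered of the 4 stages in input reads, with a median of 302 per peak against 66 in hPSC, 103 in DE and 87 in PP. Of its peaks, 92.1% had at least 50 input reads against 57.4% to 68.7%. Summed over peaks, hPSC held more IP reads (79822815) than hILO (77537744), and DE and PP held fewer. The part of input and IP depth in the organoid-only set was not tested. The label of the organoids was checked against marker genes. INS, GCG and SST had peaks in hILO and none in the other 5 lists, while the pluripotency genes POU5F1 and NANOG had peaks in hPSC and DE and none in hILO. The other endocrine markers of the check had peaks elsewhere too. These were CHGA in all 5 other lists, NEUROD1 in PP and A5-KO PP, ISL1 in WT PP and A5-KO PP, and INSM1 in hPSC and PP. Of 22 hepatic and intestinal markers, 17 had a well-covered hILO peak, and so had 11 of 19 mesenchymal markers. Of 22 acinar and ductal markers 5 had one, and PRSS1, CPA1 and CTRB1, which define acinar cells, had none. In bulk RNA of this kind, fewer cells of a type and less RNA per cell cannot be told apart, and a peak that is missing from a list can be a site without m6A or a transcript too rare for a peak to be called.

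Windows of 25 bases from 12 organoid-only peaks are shown because they lie on hormone, granule and transcription factor genes that had no peak at the earlier stages. SLC2A2, STX1A and FGB were added after their values were seen. Each is the DRACH site nearest to the middle of the gene's peak with the most input reads, with GGAC sites taken first. Capitals mark the 5 letters of the motif, and the sequences are of the transcript strand, 5′ to 3′, from GRCh38.
GCG 5UTR, chr2:162152223-162152247, minus strand: acagagcttaGGACAcagagcacat
INS end of the coding sequence, chr11:2159853-2159877, minus strand: accagctggaGAACTactgcaacta
SST 5UTR, chr3:187670316-187670340, minus strand: gcctagagttTGACCagccactctc
PCSK2 end of the coding sequence, chr20:17481903-17481927, plus strand: ctgaaggagtGGACCctgatgctgc
FEV upstream exon, chr2:218984447-218984471, minus strand: cagcgcgcctGGACCaggctccggg
ISL1 end of the coding sequence, chr5:51393502-51393526, plus strand: ttcagaaggaGGACCgggctctaat
PAX4 3UTR, chr7:127610973-127610997, minus strand: ctgcccatacAGACTgtggctcctt
LMX1A 3UTR, chr1:165203619-165203643, minus strand: ttatcattaaGGACAgagactttta
MLXIPL 3UTR, chr7:73593211-73593235, minus strand: aaagaattctTGACCaataaaagca
SLC2A2 3UTR, chr3:170997870-170997894, minus strand: ccctgcttttTGACAtgaacagaaa
STX1A 3UTR, chr7:73699292-73699316, minus strand: ttgccttcttGAACAgcgattcccc
FGB coding sequence, chr4:154563054-154563078, plus strand: taaaaccatgAAACAtctattattg
The motif was GGAC in 5 of the 12 windows, those of GCG, PCSK2, FEV, ISL1 and LMX1A. A motif match is a description and does not place a methylated base, since a DRACH site occurred in 86.4% of the 6052 well-covered hILO peaks of 75 to 125 exonic bases on the transcript strand and in 75.7% on the opposite strand. For GGAC these shares were 34.1% and 21.7%.

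Most organoid-only peaks lay on genes that carried m6A peaks before. Of the 6492 peaks, 4840 (74.6%, 95% Wilson interval 73.5% to 75.6%) were on a gene with a peak in hPSC, DE or PP. These intervals cover counting error only. In 4134 peaks on 2880 genes (63.7%) the gene also kept an earlier site, that is, another hILO peak of the gene overlapped an hPSC, DE or PP peak. In 706 peaks on 531 genes (10.9%) the gene had earlier peaks, but none of its hILO peaks overlapped them. The remaining 1652 peaks (25.4%, 24.4% to 26.5%) were on the 1152 genes without an earlier peak. Of the 4563 genes, 3295 had 1 organoid-only peak, 879 had 2 and 389 had 3 or more. Summed over the called earlier peaks of the gene, which is not the coverage at the site itself, input reads reached 50 in at least 1 of hPSC, DE and PP for 91.2% of the 4840 peaks, and in all 3 for 48.7%. The share of peaks on a gene with a peak in one of the other 3 stages was 79.8% for hPSC-only, 75.5% for DE-only and 89.0% for PP-only peaks. For hILO peaks that overlapped an earlier stage it was 99.9%, which follows from the overlap itself.

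INS, GCG and SST, the 3 main islet hormone genes, had peaks in the organoids alone. Of 18 genes for islet hormones and granule cargo, 11 had a well-covered hILO peak and 8 of these (72.7%) an organoid-only peak, against 35.9% of all genes. The list held 13 organoid-only peaks, with a median log2 enrichment of 1.47 against 1.44 for all organoid-only peaks, and 12 peaks that overlapped an earlier stage. The list was drawn up with results of these data known, and its share is not independent support. The plot of gene lists sets it beside the other lists.

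INS, the insulin gene, had 2 hILO peaks and none in the other lists. The deposited gene cell of both peaks names 2 genes, and such peaks are left out by the rule for named genes, so INS is described here although the rule leaves its peaks out. Its 3UTR peak (chr11:2159779-2159878) had 25170 input and 50081 IP reads and a log2 enrichment of 0.83, and its 5UTR peak (chr11:2160816-2161190) had 24198 input and 58888 IP reads and a log2 enrichment of 0.98. GCG, the glucagon gene, had 1 peak with its midpoint in the 5UTR (chr2:162147485-162152276, 250 exonic bases) with 241 input and 528 IP reads at a log2 enrichment of 1.65. SST, the somatostatin gene, had a 5UTR peak with 4085 input reads (log2 enrichment 0.86) and a 3UTR peak with 503 input reads (1.81). All 3 genes were at 0 peaks in hPSC, DE, PP, WT PP and A5-KO PP. The enrichment of the INS peaks and of the SST 5UTR peak was lower than the median of 1.44 over all organoid-only peaks, and that of the SST 3UTR peak was higher.

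The enzymes that process prohormones had organoid-only peaks as well. PCSK2, the convertase that cuts proglucagon, had 3, and its peak at the stop codon (chr20:17481825-17482349) had the most reads, 4237 input and 12825 IP reads and a log2 enrichment of 1.69. The others, further down the 3UTR and in the 5UTR, had 1995 and 404 input reads (1.16 and 1.53). PCSK2 had no peak in hPSC, DE, PP and WT PP, while A5-KO PP had 2 that held 175 input reads together. PCSK1, the convertase for proinsulin, had 2 in its coding sequence, with 273 and 690 input reads and log2 enrichments of 1.78 and 1.15. The only earlier PCSK1 peak, in hPSC with 109 input reads, overlapped the other hILO peak of the gene. PAM, which amidates peptides, had 1 in its last exon (203 input reads, 1.47), and CPE, the carboxypeptidase that trims prohormones, had 1 in its coding sequence (1265 input reads, 1.53). SCG3, a secretogranin that sorts granule cargo, had 1 in its 5UTR (236 input reads, 1.36), while its 4 other well-covered hILO peaks overlapped earlier peaks. CHGA, chromogranin A, had 1 hILO peak of 25 input reads, below the minimum, against 827 input reads in 3 peaks in PP. None of the 13 organoid-only peaks of the list was overlapped by a WT PP or A5-KO PP peak, which allows a share of up to 22.8% (Wilson). Over all organoid-only peaks this share was 34.8%. Of the 13, 5 lay in the 5UTR, 4 in the CDS and 4 in the 3UTR.

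The endocrine transcription factors had a similar share of genes. Of 18 factors with a well-covered hILO peak, 14 had an organoid-only peak (77.8%), against 35.9% of all genes, and 8 had no peak in hPSC, DE and PP. The list had 23 organoid-only peaks (median log2 enrichment 1.31) against 14 that overlapped an earlier stage. That made 62.2% of its peaks organoid-only, against 22.4% of all well-covered hILO peaks. FEV, a factor of endocrine progenitors, had 2 peaks, a coding sequence peak with 2497 input and 11659 IP reads (log2 enrichment 1.67) and one in an upstream exon with 2991 input reads (0.83). PAX4, a factor of the beta cell fate, had 2 well-covered peaks with 161 and 159 input reads (1.15 in the 3UTR and 0.96 in the 5UTR). FEV and PAX4 had no peak in the other 5 lists. ISL1, a LIM factor of all islet endocrine cells, had 1 peak of 1000 exonic bases around its stop codon with 109 input reads (1.79), and it was the only peak of the list that WT PP or A5-KO PP overlapped. LMX1A had 1 in its 3UTR (339 input reads, 1.19), and MLXIPL, the glucose-responsive factor ChREBP, had 1 in its 3UTR (1025 input reads, 0.86). SCRT1 had 1 in its 5UTR (500 input reads, 1.02). ST18 had 2, with 1479 input reads in the 3UTR (1.14) and 126 in the CDS (1.31).

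In the other 6 factors the organoid-only peaks stood on genes with an earlier peak. RFX6, needed for islet cell formation, had 1 PP peak and 3 organoid-only peaks, of which the one at its stop codon (chr6:116928912-116931670, 400 exonic bases) had 813 input and 3650 IP reads and a log2 enrichment of 2.49. The other RFX6 peaks, in the CDS, had 286 and 476 input reads (1.31 and 1.02). NEUROD1 had 2, each in a cell that names 2 genes. One of 50 bases, off the longest coding isoform of NEUROD1, had 1883 input and 8112 IP reads and a log2 enrichment of 2.67. The other, in the 3UTR, had 214 input reads (1.88). PAX6 had 3 with 95, 118 and 107 input reads (1.69, 1.60 and 1.47), 2 in the CDS and 1 in the 5UTR, beside 1 DE peak of 63 input reads. INSM1 had 2 with 308 and 100 input reads (1.18 in the CDS and 2.24 in the 3UTR), NKX2-2 had 1 in the CDS with 1047 input reads (1.13) and LMX1B had 1 in the 3UTR with 139 input reads (1.65). The counting error of a log2 enrichment at these counts ran from 0.03 at 2991 input reads to 0.17 at 95, so the 3 PAX6 values were about as far apart as their errors, while the RFX6 stop codon peak stood above the other RFX6 peaks by many times its error of 0.06.

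Of 14 progenitor transcription factors with a well-covered hILO peak, 7 had an organoid-only peak (50.0%), against 35.9% of all genes, and none was without an earlier peak. Their 15 organoid-only peaks (median log2 enrichment 1.15) stood against 39 overlapping ones. That made 27.8% of the peaks of the list organoid-only, against 22.4% of all well-covered hILO peaks. ONECUT2 had 4 with 208 to 333 input reads, all in its 3UTR, and HNF4A and GLIS3 had 2 each. Those of HNF4A had 76 and 463 input reads (1.38 and 0.74), and those of GLIS3 161 and 90 (2.06 and 1.94). FOXA2 had 1 in its CDS with 593 input reads (0.67) and ONECUT1 1 in its 3UTR with 356 (1.12). PDX1, NKX6-1 and SOX9, which mark pancreatic progenitors, had 2, 2 and 1 well-covered hILO peaks, and each of these overlapped an earlier peak.

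Among 35 genes of regulated exocytosis with a well-covered hILO peak, 24 (68.6%) had an organoid-only peak, against 35.9% of all such genes. STX1A, the syntaxin of the plasma membrane, had 2 hILO peaks and none in the other lists. Its 3UTR peak had 5268 input and 15263 IP reads (log2 enrichment 1.5) and its CDS peak 1187 input reads (0.82). STXBP5L, a tomosyn, had 4 with 101 to 2532 input reads beside 1 DE and 3 PP peaks. RIMS2, a scaffold of the release site, had 5 with 201 to 1109 input reads in gene cells of 2 names, all 5 overlapped in batch 2. RIMS2 also had 7 hPSC and 7 DE peaks and 5 overlapping hILO peaks. RAB3B, a GTPase of secretory vesicles, had 2 in its 3UTR with 1974 and 758 input reads (2.05 and 1.08), beside 5 hPSC and 5 DE peaks and 5 overlapping hILO peaks. PTPRN, the granule protein IA-2, and SYP, synaptophysin, were absent from the other 5 lists with 3 and 4 organoid-only peaks. Of the 49 organoid-only peaks of the list, whose median log2 enrichment was 1.43, 19 (38.8%, 26.4% to 52.8%) were overlapped in batch 2, close to the 34.8% of all organoid-only peaks.

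Of 18 genes of glucose sensing and incretin response with a well-covered hILO peak, 12 (66.7%) had an organoid-only peak against 35.9% of all such genes. The 18 organoid-only peaks of the list had a median log2 enrichment of 1.21. SLC2A2, the glucose transporter GLUT2, had 1 at its stop codon (chr3:170997797-170997971) with 4390 input and 8905 IP reads and a log2 enrichment of 1.57, where hPSC, DE, PP and WT PP had no SLC2A2 peak and A5-KO PP had 1 of 35 input reads. KCNJ11 and ABCC8 encode the pore and the sulfonylurea receptor of the KATP channel. KCNJ11 had 1 in its 3UTR with 1158 input reads (0.80) beside 3 hILO peaks that overlapped earlier ones. ABCC8 had 4 hILO peaks, all organoid-only, with 57 to 805 input reads and log2 enrichments of 0.99 to 2.05, and each midpoint lay in an intron of its longest coding isoform. KCNK16, the islet potassium channel TALK-1, had 2 with 710 and 346 input reads (1.18 and 0.71) and no peak in the other 5 lists. Of 23 voltage-gated channel genes with a well-covered hILO peak, 11 had an organoid-only peak (47.8%). CACNA2D3 had the one with the most input reads, 9199 in the CDS at a log2 enrichment of 1.52, although hPSC had 1 peak of 39107 input reads elsewhere on the gene. SCN2A had 5 in gene cells of 2 names, but 4 of them held no exonic base of SCN2A, and the one on its exons was a 3UTR peak with 441 input reads (0.99). SCN3A had 6 with 211 to 1110 input reads beside 1 PP peak of 33.

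**Figure D1:**
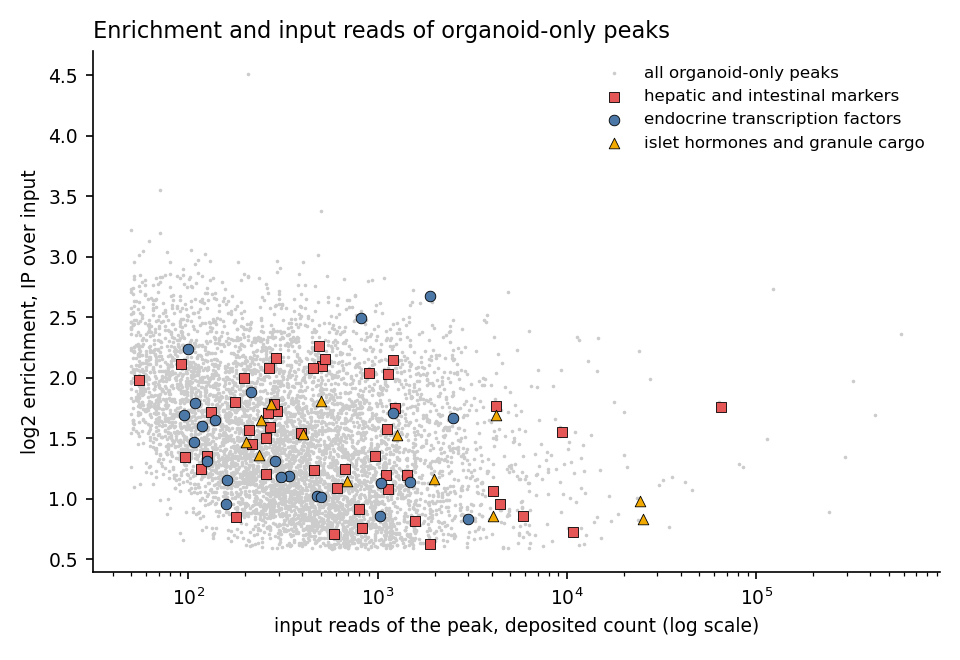
Each point is an organoid-only peak, by its deposited input reads (horizontal, log scale) and its log2 enrichment of IP over input (vertical), for all 6492 peaks in grey and for hormone and granule genes, endocrine transcription factors and hepatic and intestinal markers in colour. The INS peaks at 25170 and 24198 input reads are the rightmost hormone points, and the FGB peak at 65377 is the rightmost hepatic one.

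Hepatic and intestinal genes also had organoid-only peaks, and this was the only list in which all genes with a well-covered hILO peak (17 of 17) did. Over all such genes the share was 35.9%. They held 48 organoid-only peaks against 7 overlapping ones, or 87.3% organoid-only against 22.4% of all well-covered hILO peaks. The median log2 enrichment of the 48 was 1.55, and 11 of the genes had no peak in hPSC, DE and PP. FGB, a fibrinogen chain made by the liver, had 6 with 70077 input reads together, of which the peak over its first exons had 65377 input and 147697 IP reads and a log2 enrichment of 1.75. FGA, its partner chain, had 3 with 216 to 10800 input reads. APOB, the apolipoprotein of liver and intestine, had 13, all in the CDS, with 132 to 9435 input reads and log2 enrichments of 1.20 to 2.26. APOB had 1 peak in PP, and 12 of its 13 organoid-only peaks were overlapped in batch 2. VIL1, villin of the brush border, had 5, and 4 of them were overlapped in batch 2. AFP had 1 in its 5UTR with 510 input and 1476 IP reads, and ALB had 1 in its CDS with 611 input and 921 IP reads (1.09).

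The hepatic and endocrine lists had different shares in the second batch. Of the 48 hepatic and intestinal organoid-only peaks, 30 (62.5%, 48.4% to 74.8%) were overlapped by a WT PP or A5-KO PP peak. This was so for 1 of the 23 endocrine factor peaks (4.35%, 0.772% to 21.0%) and 0 of the 13 hormone and granule peaks, against 34.8% of all organoid-only peaks. Genes without an earlier peak could still have a batch 2 peak elsewhere. In the endocrine factors 3 of 8 did, in the hormone and granule genes 1 of 4 and in the hepatic and intestinal genes 9 of 11. In A5-KO PP, ST18 had 7 peaks with 1063 input reads and LMX1A had 2 with 686. TTR, the transthyretin gene, had 1 organoid-only peak with 5868 input reads, no peak in hPSC, DE and PP, and 2 peaks in each batch 2 list, those of A5-KO PP with 250 input reads and those of WT PP with 15675. FGG, a further fibrinogen chain, had 3 with 5872 input reads, none in hPSC, DE and PP, and in batch 2 it had 4 in A5-KO PP (45854 input reads) and 5 in WT PP (23641). Pancreatic progenitors therefore had peaks on TTR and FGG in batch 2 and none in batch 1. Batch, antibody, RNA type and differentiation run cannot be told apart. Peaks of 1 gene share their transcript, and the intervals treat them as separate.

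The remaining lists are counted over their genes with a well-covered hILO peak, and over all such genes the share with an organoid-only peak was 35.9%. Mesenchymal markers had 8 of 11 (72.7%), led by FN1, fibronectin, with 3 of 2873 to 9322 input reads, TAGLN with 3 and COL6A1 with 1. None of the 13 organoid-only peaks of the mesenchymal list was overlapped in batch 2 (Wilson interval 0% to 22.8%), against 34.8% of all organoid-only peaks. Of its overlapping hILO peaks 40.0% were overlapped there, against 75.1% of all overlapping hILO peaks. Zinc and thyroid hormone response genes, listed because the organoid medium holds zinc sulfate and T3, had 4 of 7 (57.1%). They were the T3 receptors THRA with 3 and THRB with 2, KLF9 with 2 and HR with 1, and HR alone had no earlier peak. No metallothionein gene of the list, nor SLC30A1 or MTF1, had an organoid-only peak. The m6A factors had 9 of 20 (45%), all on genes with earlier peaks. HNRNPA2B1, a reader, had 2 with 5561 and 1380 input reads (0.70 and 0.83), HNRNPC had 1 with 1375 (0.60) and YTHDF1 1 with 1132 (1.22). Neuronal genes had 9 of 25 (36.0%), close to all genes, with ANK2 at 6 peaks, MAP1B at 4 and KIF5C at 1. The unfolded protein response list had 5 of 17 (29.4%), with 6421 input reads in a PDIA4 peak, at 0 bases from an earlier one along the exons, and ATF6 and EIF2AK3 had 1 each. Cell cycle genes had 4 of 17 (23.5%), CCND2 with 3, CCND1 with 2 and CDKN1C and CDKN2A with 1 each. Of 5 acinar and ductal genes, CFTR and SPINK1 had 1 each.

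KCNQ1OT1 and DST had the most organoid-only peaks. KCNQ1OT1, the imprinted antisense lncRNA of the KCNQ1 locus, had 20 with 52 to 513 input reads, and 15 of them were overlapped in batch 2. Its hILO list held 31 peaks against 1 in hPSC, 1 in DE and 7 in PP, and 52 in WT PP. KCNQ1OT1 overlaps KCNQ1 on the other strand. DST, a cytoskeletal linker, had 16, of which 12 were in the CDS, beside 21 overlapping hILO peaks. EHBP1 had 7 beside 4 overlapping ones.

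ADGRG4, an adhesion receptor that marks enterochromaffin cells, led the genes without an earlier peak. It had 14 hILO peaks, all organoid-only, 12 of them in the CDS, with 162 to 947 input reads and log2 enrichments of 1.15 to 2.30. No ADGRG4 peak was called in WT PP, A5-KO PP had 2 with 150 input reads, and none of the 14 was overlapped. NCKAP5 had 10 (128 to 2571 input reads, 9 in the CDS), MYH4, a skeletal muscle myosin, had 8, all in the CDS (105 to 1326 input reads), and CASR, the calcium-sensing receptor, had 8 (60 to 1209 input reads). MYH4 had no peak in the other 5 lists. LRRC4C had 7, AMER3, FGB and IFIT3 had 6 each, and A1CF, the APOB mRNA editing cofactor, and CLIC5 had 5 each. All 7 LRRC4C peaks and 5 of the 6 AMER3 peaks were overlapped in batch 2, unlike those of ADGRG4 and MYH4. Myosin heavy chain genes are close copies of each other, so the MYH4 counts could include reads of its paralogs.

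Genes with many earlier peaks were a further group. DST, described above, had 61 in hPSC, DE and PP and the most organoid-only peaks of the group. In the other 9 genes overlapping hILO peaks were the larger number, as over all genes, where 22.4% of well-covered hILO peaks were organoid-only. The group was picked for its many earlier peaks. AHNAK had 67 peaks in hPSC, DE and PP together and 3 organoid-only peaks beside 22 overlapping ones. MACF1 had 4 beside 21, AKAP9 3 beside 12, SPEN 1 beside 17, KIAA2026 1 beside 16, KMT2C 1 beside 14, CENPF 1 beside 13, ERC1 1 beside 8 and ALMS1 1 beside 5. Most of these peaks were small, from 56 input reads in KMT2C to 640 in SPEN, and the ALMS1 peak had 3805.

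The distance to earlier peaks was measured along the merged exons of the gene for 4755 organoid-only peaks. The median was 500 bases (quartiles 175 and 1446.5). Within 100 bases of an earlier peak lay 18.7%, within 200 bases 30.1%, and beyond 1000 bases 33.4%. The nearest peaks were short, with a median of 75 exonic bases under 50 bases of distance against 150 beyond 5000. Overlap with batch 2 was 44.8% and 45.1% in the bins below 100 bases and 28.3% to 36.3% in the bins from 200 bases on. Counting earlier peaks within 200 bases of the span as overlap would take away 1107 peaks (17.1%).

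By position, 4255 organoid-only peaks (65.5%) were placed on the longest coding isoform of their gene, against 77.9% of the 22548 overlapping hILO peaks. Of the placed peaks 54.6% (53.1% to 56.1%) were in the CDS, 40.6% (39.2% to 42.1%) in the 3UTR and 4.77% (4.17% to 5.45%) in the 5UTR. The overlapping peaks had 53.7%, 42.6% and 3.64%, so the split over transcript regions was close in both sets. The place of the peaks within those regions was less alike. Midpoints within 200 bases of the stop codon made up 14.6% (13.6% to 15.7%) of organoid-only and 23.3% (22.7% to 23.9%) of overlapping peaks. In the other single-stage sets this share was 13.1% (hPSC-only), 15.9% (DE-only) and 8.29% (PP-only). Internal exons held 45.9% against 34.6% and last exons 47.7% against 58.3%. Of the peaks in internal exons, 14.6% (285 of 1953) were in exons over 400 bases, against 44.1% (2686 of 6084) of overlapping peaks.

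Peaks found in 1 other stage gave further values for long internal exons. The share of exons over 400 bases among internal exons was 44.3% for hPSC-only, 26.8% for DE-only and 24.2% for PP-only peaks, and none of their intervals reached that of the organoid-only peaks (13.1% to 16.2%). Peaks found only in hPSC, DE or PP lay more often in the 5UTR, 15.2%, 7.80% and 14.3%, than organoid-only peaks. Organoid-only peaks more often spanned several exons, 37.5% (36.3% to 38.7%), than overlapping hILO peaks (26.9%), and than peaks found only in hPSC (18.6%), DE (22.9%) or PP (33.8%). Their median exonic length was 125 bases against 200 for overlapping hILO peaks, and 75 to 100 for the 3 other single-stage sets.

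**Figure D2:**
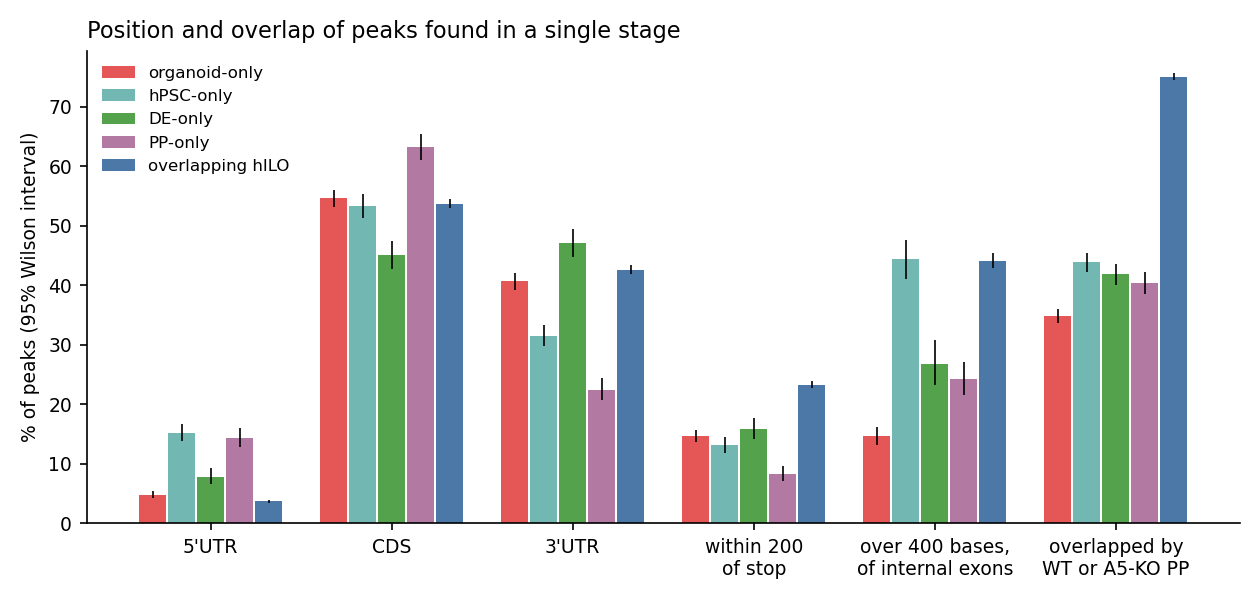
Shares of peaks in percent, with 95% Wilson intervals, for organoid-only peaks, the peaks found in 1 other stage and the hILO peaks that overlapped an earlier stage. Regions and the stop codon window are of placed peaks, exons over 400 bases are of peaks in internal exons, and overlap with WT PP or A5-KO PP is of all peaks. The organoid-only bar is lowest for long internal exons (14.6%) and for overlap (34.8%).

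Peaks off the longest coding isoform were of several kinds. Genes that are not protein-coding held 15.5% of organoid-only peaks (14.6% to 16.4%) against 10.8% of overlapping ones, and lncRNA genes alone 11.9% against 7.38%. In hPSC-only, DE-only and PP-only peaks the share on genes that are not protein-coding was 17.7%, 24.5% and 11.7%, and on lncRNA genes 13.7%, 18.8% and 8.66%. Midpoints in an intron of the longest coding isoform made up 9.69% (8.99% to 10.4%) against 4.43% (4.17% to 4.71%), and exons of another coding isoform 6.27% against 4.97%. The 629 peaks in introns lay on 561 genes with a median of 379 input reads, and ABCC8 and SULT1C2 had the most, 4 each. The intron share was 6.96% in hPSC-only, 7.83% in DE-only and 10.6% in PP-only peaks. Counts of this kind can include reads of unspliced transcripts.

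Genes without an earlier peak had another pattern of positions than genes with one. Near the stop codon lay 24.0% of the placed organoid-only peaks on genes without an earlier peak, 17.8% on genes whose earlier sites were all elsewhere, and 11.1% on genes that kept an earlier peak. The 5UTR share was 7.38%, 4.12% and 4.04% in the same order, and the share on lncRNA genes was 24.6%, 13.2% and 6.58%.

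The enrichment of organoid-only peaks was not higher than that of the rest. Their median log2 enrichment was 1.44 (quartiles 1.07 and 1.87), against 1.48 (1.12 and 1.86) for overlapping hILO peaks, and their median input was 357 reads against 337. The median was 1.91 at 50 to under 100 input reads and 1.22 at 5000 or more in organoid-only peaks, against 1.86 and 1.30 in overlapping ones. The share of organoid-only peaks by input reads moved little, between 21.1% and 26.2% over 6 bins.

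Among peaks that list 1 gene, the highest enrichments were led by CIC, a transcriptional repressor, with 207 input and 6215 IP reads in a peak off its longest coding isoform and a log2 enrichment of 4.50 (counting error 0.10). High values were also found for the lncRNA gene ENSG00000274333 at 3.55, FSIP2 at 3.22, APPAT at 3.20, MAP7D2 at 3.13, KCNQ1OT1 at 3.06, WASF1 at 3.03, GRK5 at 3.02 and the lncRNA gene ENSG00000251095 at 3.01. Apart from CIC and ENSG00000251095, each had between 50 and 122 input reads and a counting error of 0.14 to 0.22. The adjusted p-value that exomePeak2 gave for the CIC peak, 5.25e-11, was the largest among these peaks, against 3.48e-51 for GRK5. The counting error leaves out the spread between libraries, so it does not measure how certain the CIC value is.

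Some organoid-only peaks held very many reads in a few bases, and the following values are of those that list 1 gene. ITGA8, an integrin chain, had a single hILO peak of 75 bases in its 3UTR with 581989 input and 2235020 IP reads. RAP1GAP had 421548 input reads in 50 bases of its CDS, AHSA1 294184 in 150 bases and XAB2 241386 in 125. SKIC3 had 121682, SCMH1 113185, CAMSAP3 81315, FGB 65377, PXN 63662 and FGFR3 45469. Over all organoid-only peaks, those that list several genes included, the 4 with the most input reads held 21.4% of the input reads, and the median peak had 3.03 input reads per exonic base. The other hILO peak of RAP1GAP brought the gene total to 421896, while 2 other AHSA1 peaks, which overlapped earlier ones, brought that gene to 1263051. ITGA8 had 938 input reads in 6 peaks in A5-KO PP.

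Organoid-only peaks held fewer GGAC motifs than overlapping hILO peaks. Among peaks of 75 to 125 exonic bases, 30.5% (28.6% to 32.4%) of organoid-only and 36.4% (34.8% to 37.9%) of overlapping peaks had a GGAC, and 85.5% and 87.0% had a DRACH site. Over all lengths there were 2.86 and 4.34 GGAC per 1000 bases counted, a ratio of 0.658 (0.641 to 0.676). The 86 organoid-only peaks without an exonic base of their gene were counted over their deposited span and made up 49.2% of the bases, and 329 overlapping peaks were counted in the same way. Without them the densities were 3.61 and 4.59, a ratio of 0.787, and 0.798 was found when peaks with over 1000 bases counted were left out. The ratio for DRACH was 0.913, and on the opposite strand 0.885 for GGAC and 1.13 for DRACH. In the CDS the GGAC density was 4.55 against 4.69, and in the 3UTR 3.30 against 4.84. A site in a peak is a match of letters and was not tested for methylation.

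The second batch holds other libraries of progenitors, made with another antibody and RNA type. A WT PP peak overlapped 24.3% of organoid-only peaks, an A5-KO PP peak 26.4%, either 34.8% (33.7% to 36.0%), and both 15.9%. For overlapping hILO peaks 75.1% were overlapped by either. Peaks found only in hPSC, DE or PP were overlapped in 43.9%, 41.8% and 40.4%, each above the interval of the organoid-only peaks. At the level of genes, 63.6% of the 1152 genes without an earlier peak had a peak in WT PP or A5-KO PP, against 93.0% of the genes with an organoid-only and an earlier peak. The list of organoid-only peaks absent from batch 2 as well had 4232 peaks.

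At the edge of the rule, CDH10, GNL3L, ASXL3, OGT and MFSD14B entered with peaks of 50 input reads, and peaks on DST, TSHZ2, AP2A2, RPS23 and ARHGEF10L missed it with 49. Log2 enrichments were 1.90 to 2.57 inside and 1.69 to 2.31 outside. In all, 593 hILO peaks without earlier overlap were under the minimum, and 241 of the overlapping peaks shared 25 bases or fewer with earlier peaks.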

How the data were processed

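m6A-seq peak lists of hPSC, DE, PP, hILO, WT PP and A5-KO PP were used. Per the study's methods and the submitters' processing notes, the authors used fastp for trimming, HISAT2 for alignment to GRCh38 and exomePeak2 for peaks, called on the pooled libraries of each population with IP over input of at least 1.5. The deposited values are read counts of IP and input, a log2 enrichment and a p-value, raw and adjusted, for every peak. Lists were made separately, and the 2 IP and 2 input libraries of a population cannot be told apart in them. Whether the counts are sums or means over libraries, and the version and annotation of exomePeak2, are not given in the sources used here.

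Only the exonic bases of a peak's gene (GENCODE 44, GRCh38) were kept for lengths and motifs. Where a peak held none (86 organoid-only peaks), its deposited span was kept. Where the deposited cell named several genes (16.1% of organoid-only peaks), 1 was taken, coding genes first, then by exonic bases. Midpoints were placed on the longest coding isoform. Motifs were counted with python 3.11.15 and pysam 0.24.0 on the transcript strand. Counting errors took the deposited counts as sums over libraries, with 0.5 added. Shares carry Wilson 95% intervals. Overlap and placement were checked on simulated peaks.

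The peaks and the 14 gene lists (350 genes) were chosen with earlier results of these data known. Genes were named by rule: all members of the hormone, endocrine and progenitor factor lists, the 10 highest by enrichment, by input reads, by number of peaks, by number of peaks among genes without earlier peaks, and by number of earlier peaks, the 3 with most input reads per other list, and the 5 nearest the input minimum on each side. The rule leaves out peaks listing several genes. INS, NEUROD1, RIMS2, SCN2A, CCND2 and TAGLN, whose organoid-only peaks all list several, met the other parts of the rule and are described all the same. RAB3B, PTPRN, SYP, KCNK16, VIL1, AFP, ALB, TTR, FGG, CDKN2A, CHGA, KLF9 and the stage markers were named after their values were seen. Some results of the rule are not reported here. Alternatives varied the input minimum, overlap rule, strand, enrichment, isoform and length.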

Additional observations from a re-analysis of the deposited data

How the results depend on the processing

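Each of 9 results was recomputed under the 13 alternative settings that apply to it, 102 values in all, of which 80 stayed within the interval of the reported value or, for the number of peaks, within 1.5 times it. The number of organoid-only peaks lay between 4492 and 8736 except when peaks of WT PP and A5-KO PP were excluded too, which left 4232. That setting also gave 56.4% in the CDS, 38.8% in the 3UTR, a difference in median log2 enrichment of -0.0705 and density ratios of 0.830 for GGAC and 0.899 for DRACH. The difference in median log2 enrichment, -0.04 as reported, turned to 0.00079 with an enrichment of at least 2, where the share overlapped in batch 2 was 36.0%, and was -0.0788 from the count ratios. With 200 input reads the overlap with batch 2 was 33.2% and the ratios were 0.713 (GGAC) and 0.926 (DRACH). When more than 50% exonic overlap was needed, 80.9% lay on genes with an earlier peak, 38.7% were overlapped in batch 2 and the GGAC ratio was 0.684. Counting earlier peaks within 200 bases gave 69.4% and 32.8% for these shares. With any coding isoform the 5UTR share was 7.27%. Among settings chosen after seeing the data, peaks listing 1 gene gave 73.2% on genes with an earlier peak and a GGAC ratio of 0.735, peaks of at most 1000 exonic bases a GGAC ratio of 0.798, and peaks with an exonic base of their gene one of 0.787. The causes were not tested. No paired analysis was possible because each list pools its libraries and gives no value per library, and for the same reason no library could be left out. Input depth limits what a missing peak means, as the earlier lists had fewer input reads per peak than hILO.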
